A study of Mus musculus with 6 samples.

Results

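The genes described are the transcriptional coactivators Yap1 and Wwtr1, which encode YAP and TAZ, their DNA-binding partner Tead1, and 7 genes whose transcription YAP and TAZ are known to drive: Cyr61, Ctgf, Ankrd1, Amotl2, Ajuba, Lats2 and Axl. They were chosen by symbol, with earlier results of these data known. All 10 were found among the 54446 features counted in every library. The study profiled mouse glioma cells by droplet single-cell RNA-seq with a 5' kit in 6 libraries. GL261, an established mouse glioma line, was grown in differentiation medium with fetal calf serum (FCS) and gave 2 libraries. GL261-GSCs, labelled glioblastoma stem cells, were kept in a defined medium and gave 4 libraries. The labels name no engineered allele or added agent for either culture, so line label and medium cannot be told apart. Droplets held cells or nuclei, and the labels do not say which.

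YAP and TAZ carry no DNA-binding domain of their own and reach promoters and enhancers through TEAD factors. In the Hippo pathway MST kinases activate LATS kinases, which phosphorylate YAP and TAZ and so keep them in the cytoplasm, so their activity is set largely by protein localization rather than by their own transcript levels. Cell spreading, tension on the actin cytoskeleton, attachment and serum lipids are known to favour their nuclear form, and in glioma the pathway is known for its ties to proliferation and to mesenchymal traits.

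Promoters were examined for the core sequence that TEAD factors recognise, GGAATG, on both strands (CATTCC on the other). The windows held the 250 bases before the transcription start in RefSeq (GRCm38.p6), and 8 of the 10 genes had an entry. The core was present in 7 of the 8, in all but Lats2. Both Lats2 windows lay inside the gene's span in GENCODE M21, so its farthest annotated start was not examined. Of all 27025 genes with an entry, 14.4% held the core in a window of this length. It was present in 8 of 21 other Hippo pathway genes and in 2 of 10 other YAP/TAZ target genes with an entry. Printed 5' to 3' on the gene's strand are 3 windows of genes that were lower in GL261-GSCs, then Yap1, whose difference did not pass the test; capitals mark the TEAD core.
Cyr61, chr3:145649986-145650235, minus strand: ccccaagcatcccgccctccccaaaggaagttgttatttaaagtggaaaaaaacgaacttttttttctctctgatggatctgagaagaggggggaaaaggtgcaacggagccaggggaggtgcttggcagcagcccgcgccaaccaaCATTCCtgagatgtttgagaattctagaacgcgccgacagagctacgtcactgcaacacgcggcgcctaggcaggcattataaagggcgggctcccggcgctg
Ajuba, chr14:54577662-54577911, minus strand: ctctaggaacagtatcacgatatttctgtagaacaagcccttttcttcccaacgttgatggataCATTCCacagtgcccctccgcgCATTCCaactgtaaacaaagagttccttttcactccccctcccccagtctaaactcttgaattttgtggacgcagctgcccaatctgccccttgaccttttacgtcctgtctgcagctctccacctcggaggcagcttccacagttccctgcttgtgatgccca
Axl, chr7:25788734-25788983, minus strand: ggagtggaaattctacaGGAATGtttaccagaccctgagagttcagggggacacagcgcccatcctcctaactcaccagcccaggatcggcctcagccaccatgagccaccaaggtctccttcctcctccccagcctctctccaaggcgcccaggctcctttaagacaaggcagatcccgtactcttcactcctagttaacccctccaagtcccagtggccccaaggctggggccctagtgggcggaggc
Yap1, chr9:8004597-8004846, minus strand: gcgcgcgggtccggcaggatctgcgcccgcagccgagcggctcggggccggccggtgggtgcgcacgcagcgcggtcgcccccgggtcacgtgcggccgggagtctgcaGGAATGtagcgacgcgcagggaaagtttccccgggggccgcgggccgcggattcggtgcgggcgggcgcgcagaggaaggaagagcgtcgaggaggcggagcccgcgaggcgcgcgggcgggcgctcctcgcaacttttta

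In the Cyr61 window the core began 103 bases before the start. Ajuba held a pair of cores, 186 and 164 bases before the start, and Axl held its core farther away, at 233 bases. Ankrd1 had cores at 210 and 123 bases, Amotl2 at 65 bases, Wwtr1 at 136 bases (170 in a second window) and Yap1 at 141 bases. In GENCODE M21, all 250 bases of the Ankrd1 window and 136 bases of the Amotl2 window lie in exons of these genes, so for some annotated transcripts their cores lie after the start. The letters were therefore shared by genes with very different changes between the cultures, including Yap1. The AP-1 sequence TGANTCA was in 0 of the 8 genes and in 7.82% of all genes with an entry, and the CArG box of serum response factor was in 0 of 8 and in 1.62% of all genes. A match describes letters only, and enhancers were not examined.

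The libraries held 80899005 to 121309232 UMIs, of which 33320530 to 79472306 were in 4264 to 7275 called cells per library. Median UMIs per cell ranged from 6670 to 15477.5. The pairs of libraries shared 32 to 59 called barcodes, against 26.1 to 57.9 by chance. The progenitor markers Sox2, Nes and Vim were present in all libraries, at unlike levels. CPM are UMIs per 1e6 of a library's total over called cells, scaled by the trimmed mean of M values (TMM). Nes had 1183 and 1265 CPM in GL261 and 312 to 563 in GL261-GSCs, and Vim 14053 and 15215 against 4355 to 5052. Sox2 had 66.8 and 67.5 CPM in GL261 and 81.7 to 141 in GL261-GSCs. Olig2 had 62 and 1 UMIs in the GL261 libraries and 401 to 787 CPM in GL261-GSCs. The 6 myeloid markers summed to 12.7 to 12.9 CPM in GL261, nearly all of it Csf1r, and to 0.192 to 0.303 CPM in GL261-GSCs. The 4 fibroblast and pericyte markers summed to 5.05 to 5.07 CPM in GL261 and 0.317 to 0.687 in GL261-GSCs, with Lum and Dcn under 1 CPM in every library. The 4 endothelial markers summed to at most 1.63 CPM. The 3 neuron markers summed to at most 0.0331 CPM in GL261 and reached 78.2 CPM in GL261-GSCs, nearly all of it Syt1, with Rbfox3 at 0. The 3 oligodendrocyte markers summed to 172 to 268 CPM in GL261 and 163 to 235 in GL261-GSCs, and the 3 astrocyte markers to 7.85 to 8.34 and at most 0.0549 CPM. The part of these marker differences in the results was not tested.

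All levels below are CPM, scaled by TMM, of the UMIs summed over the called cells of a library, except those of free RNA. Of the 10 genes, 9 were lower in GL261-GSCs at an adjusted p under 0.05 and none was higher, by the edgeR quasi-likelihood test with Benjamini-Hochberg adjustment over 18439 genes. Among all genes tested 14.1% were called lower and 15.8% higher, 29.9% in all. All 10 genes lay lower in each of the 4 GL261-GSCs libraries than in both GL261 libraries, which held for 28% of all genes. Of the 10, 8 were called lower by more than 1 on the log2 scale, as were 8.99% of all genes. Their median log2 fold change, GL261-GSCs over GL261, was -2.83, beside 0.04 for all genes. These contrasts are descriptions, as the 10 genes were chosen with earlier results of these data known. The labels do not say whether replicates were separate cultures, so p-values measure only the spread between libraries. In these sums, fewer cells with a transcript and less of it per cell cannot be told apart. With library size scaling in place of TMM the median of all genes was 0.18, and the split of calls over all genes moved from 2920 higher and 2594 lower to 3491 higher and 2034 lower, with 9 of the 10 genes still called lower.

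**Figure D1:**
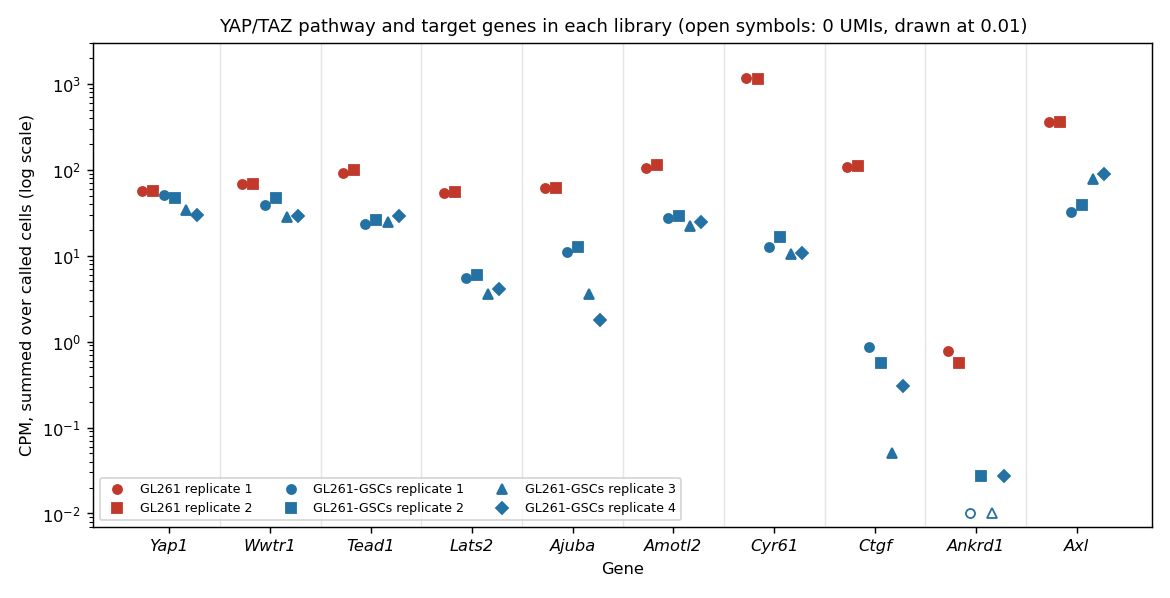
Levels of the 10 genes in each library, in CPM on a log axis, 1 symbol per library (red GL261, blue GL261-GSCs, open symbols for 0 UMIs). The blue symbols lie below the red for every gene, by a narrow margin for Yap1 and by the widest margins for Cyr61 and Ctgf.

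The coactivators had the smallest fold changes of the 10 genes. Yap1 (ENSMUSG00000053110.13, chromosome 9, 7931999 to 8004596, minus strand) had 56.7 and 56.1 CPM in GL261 and 51.2, 47.0, 33.9 and 29.4 CPM in GL261-GSCs replicates 1 to 4. All 4 values were lower, but GL261-GSCs replicate 1 lay close to GL261 and the spread within GL261-GSCs was wide. Its log2 fold change of -0.48 (SE 0.24, 95% interval -1.04 to 0.08) did not pass, with an edgeR adjusted p of 0.166.

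Wwtr1 (ENSMUSG00000027803.14, chromosome 3, 57455649 to 57575910, minus strand) had 68.1 and 68.3 CPM in GL261 and 38.3, 47.2, 28.5 and 29.2 CPM in GL261-GSCs. The groups did not overlap, and Wwtr1 fell by 0.93 on the log2 scale (SE 0.22, edgeR adjusted p = 0.0201), to 1.90-fold lower. The call was lost without GL261 replicate 1 or replicate 2, with edgeR adjusted p-values of 0.117 and 0.127 at log2 fold changes of -0.94 and -0.93.

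Tead1 (ENSMUSG00000055320.17, chromosome 7, 112679318 to 112906807, plus strand), the TEAD family member among the 10 genes, had 92.4 and 98.0 CPM in GL261. In GL261-GSCs it had 23.3, 26.1, 24.7 and 28.7 CPM, a narrow range well below GL261. It fell by 1.89 on the log2 scale (SE 0.12), 3.71-fold, with an edgeR adjusted p of 0.000168.

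The 3 genes that both respond to YAP/TAZ and act back on the pathway were all lower. Lats2 (ENSMUSG00000021959.16, chromosome 14, 57689662 to 57758388, minus strand) encodes a kinase that phosphorylates YAP and TAZ. It had 53.7 and 55.2 CPM in GL261 and 5.53, 5.98, 3.56 and 4.04 CPM in GL261-GSCs. Every GL261-GSCs library was far below GL261, and Lats2 fell by 3.51 on the log2 scale (SE 0.23, 11.4-fold, edgeR adjusted p = 0.000166).

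Ajuba (ENSMUSG00000022178.11, chromosome 14, 54567472 to 54577558, minus strand) encodes a LIM protein that binds LATS kinases at junctions and restrains them. It had 61.2 and 60.8 CPM in GL261 and 11.1, 12.5, 3.56 and 1.76 CPM in GL261-GSCs replicates 1 to 4. Replicates 3 and 4 were lower than 1 and 2, so the fall of 3.07 on the log2 scale (SE 0.69, edgeR adjusted p = 0.0167) had a wide interval, from -4.70 to -1.43. The call was lost without GL261 replicate 1 or replicate 2 (edgeR adjusted p = 0.0837 and 0.0878).

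Amotl2 (ENSMUSG00000032531.15, chromosome 9, 102716672 to 102733418, plus strand) encodes a motin that binds YAP and holds it out of the nucleus. It had 105 and 114 CPM in GL261 and 27.6, 28.6, 22.1 and 24.5 CPM in GL261-GSCs. The values within each group were close, and Amotl2 fell by 2.09 on the log2 scale (SE 0.14, 4.26-fold, edgeR adjusted p = 0.000169).

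The genes of the secreted CCN proteins had the largest fitted fold changes. Cyr61 (Ccn1; ENSMUSG00000028195.4, chromosome 3, 145646976 to 145649981, minus strand), an integrin-binding matrix protein, had 1162 and 1134 CPM in GL261. In GL261-GSCs it had 12.6, 16.3, 10.6 and 10.6 CPM. It fell by 6.52 on the log2 scale (SE 0.22, 95% interval -7.04 to -5.99), 91.5-fold, with an edgeR adjusted p of 2.58e-05.

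Ctgf (Ccn2; ENSMUSG00000019997.11, chromosome 10, 24595442 to 24598683, plus strand), which promotes matrix production, had 7299 and 6709 UMIs in GL261, or 108 and 111 CPM. The GL261-GSCs libraries held 57, 41, 4 and 11 UMIs. Each was at most 0.864 CPM, and Ctgf fell by 7.93 on the log2 scale (SE 0.72, edgeR adjusted p = 0.000537). The antisense gene Gm15270 overlaps Ctgf and held 352 UMIs in GL261 and 71 in GL261-GSCs. No source used here names the strand setting of the counting, so reads of the pair may be mixed.

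Ankrd1 (ENSMUSG00000024803.8, chromosome 19, 36111961 to 36120099, minus strand), an ankyrin repeat protein of muscle and a common YAP/TAZ reporter gene, was scarce in both cultures. It had 52 and 34 UMIs in the GL261 libraries and 0, 2, 0 and 1 in GL261-GSCs. The ratio of GL261 to GL261-GSCs counts per UMI was 57.1, with a 95% counting interval of 18.9 to 282, and the edgeR adjusted p was 0.00235. Its size rests on GL261-GSCs replicate 2, without which the log2 ratio of GL261-GSCs to GL261 counts was -6.94 instead of -5.84.

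Axl (ENSMUSG00000002602.16, chromosome 7, 25757273 to 25788705, minus strand), a receptor tyrosine kinase of the TAM family, had 362 and 359 CPM in GL261. In GL261-GSCs it had 32.5, 38.7, 77.8 and 88.6 CPM in replicates 1 to 4. All were below GL261, and here replicates 3 and 4 were the higher ones, the reverse of their order for Ajuba. Axl fell by 2.60 on the log2 scale (SE 0.40, 6.07-fold, edgeR adjusted p = 0.00419).

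**Figure D2:**
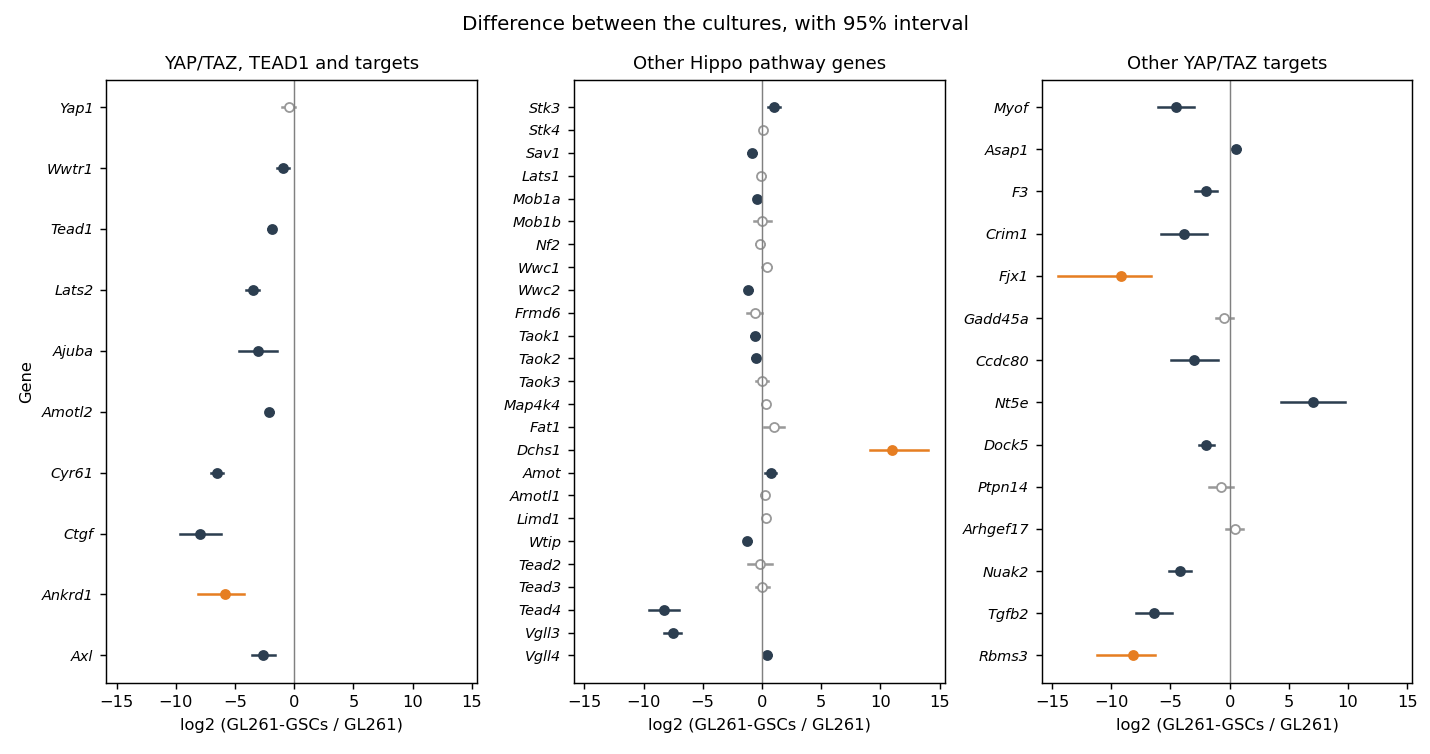
Log2 fold change (GL261-GSCs over GL261) with 95% interval for the 10 genes and for other Hippo pathway and YAP/TAZ target genes; filled symbols passed the test, and orange symbols are UMI ratios with counting intervals for genes with 1 to 3 UMIs in a group. The 10 genes all lie left of 0, while other Hippo pathway genes lie on both sides.

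Other Hippo pathway genes were called in both directions. Of 26 other pathway genes 25 were tested, and 8 were lower and 4 higher, with a median log2 fold change of 0.01. Among all genes tested 14.1% were lower and 15.8% higher, so the higher calls stood near the share of all genes. The split depended on scaling: with library sizes alone it was 5 lower and 8 higher. The split of all genes moved likewise, to 2034 lower and 3491 higher. Without GL261 replicate 1, and likewise without replicate 2, 5 were called.

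The lower genes with the greatest changes in this list also act with TEAD. Tead4, a TEAD paralogue, had 30.5 and 29.3 CPM in GL261 and at most 0.197 CPM in GL261-GSCs, and fell by 8.24 on the log2 scale (SE 0.54, edgeR adjusted p = 0.000167), with a log2 fold change of -8.90 without GL261-GSCs replicate 1. Vgll3, a TEAD cofactor that competes with YAP, had 197 and 250 CPM in GL261 and 0.863 to 1.65 CPM in GL261-GSCs, and fell by 7.54 (SE 0.30, edgeR adjusted p = 4.07e-05). The other TEAD paralogues were not called: Tead2 had 94.4 and 104 CPM in GL261 and a wide range of 49.4 to 150 CPM in GL261-GSCs, and Tead3 stayed between 2.09 and 2.90 CPM in all libraries. Both were named after their values were seen. Wtip, a LIM protein related to Ajuba, fell by 1.24 on the log2 scale, and Wwc2, which aids LATS activation, fell by 1.15 (edgeR adjusted p = 0.000776 and 0.00142).

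Of the 4 higher genes, Dchs1, the cadherin ligand of FAT4, had 1 UMI in each GL261 library and 22.9 to 44.9 CPM in GL261-GSCs. The count ratio was 1994, with a 95% counting interval of 552 to 16471 (edgeR adjusted p = 0.000102). Stk3, which encodes the kinase MST2, had 43.9 and 47.6 CPM in GL261 and 68.5 to 108 CPM in GL261-GSCs, and rose by 1.01 on the log2 scale (edgeR adjusted p = 0.0106). Amot, a motin like Amotl2, rose by 0.74 (edgeR adjusted p = 0.0325), and Vgll4, a TEAD cofactor that represses YAP targets, rose by 0.46 (edgeR adjusted p = 0.0397). These 3 calls were lost without GL261 replicate 1 or replicate 2, with edgeR adjusted p-values of 0.106 and 0.0872 for Stk3, 0.195 and 0.192 for Amot and 0.228 and 0.242 for Vgll4. Those of Amot and Vgll4 were also lost without GL261-GSCs replicate 2 (edgeR adjusted p = 0.0538 and 0.0649) or replicate 3 (0.0585 and 0.0827), and that of Vgll4 with no filter on low counts (0.0869). Lats1, the paralogue of Lats2, had 66.3 and 66.0 CPM in GL261 and 60.6 to 71.4 CPM in GL261-GSCs, overlapping ranges (log2 fold change -0.04, 95% interval -0.33 to 0.24). Lats1 was named after its values were seen.

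Of 16 further genes of a published YAP/TAZ target signature, 14 were tested. Of these, 9 were lower and 2 higher, beside 14.1% lower and 15.8% higher among all genes. Their median log2 fold change was -2.49. Without GL261 replicate 1, and likewise without replicate 2, 6 were called. Fjx1, a secreted relative of the Four-jointed kinase, had 157 and 128 UMIs in GL261 and 1, 0, 0 and 0 in GL261-GSCs, a ratio of 568 (95% counting interval 101 to 22505, edgeR adjusted p = 0.000242). Rbms3, an RNA-binding protein, had 184 and 100 UMIs in GL261 and 0, 2, 0 and 0 in GL261-GSCs, a ratio of 283 (77.6 to 2347, edgeR adjusted p = 0.000651). Each had its UMIs in 1 GL261-GSCs library, without which it stood at 0.

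Tgfb2, a TGF-beta ligand, had 33.6 and 48.0 CPM in GL261 and 0.192 to 1.05 CPM in GL261-GSCs, and fell by 6.40 on the log2 scale (edgeR adjusted p = 0.000781), with a log2 fold change of -7.17 without GL261-GSCs replicate 2. Myof, a membrane repair protein, had 126 and 146 CPM in GL261 and 2.25 to 11.1 CPM in GL261-GSCs, and fell by 4.56 (edgeR adjusted p = 0.00276). The 2 genes against this direction were Nt5e and Asap1. Nt5e, the ectonucleotidase CD73, had 15 and 8 UMIs in GL261 and 50.8, 26.2, 9.89 and 7.64 CPM in GL261-GSCs, and rose by 7.03 (SE 1.14, edgeR adjusted p = 0.0051), or by 6.35 without GL261-GSCs replicate 1. Asap1, an Arf GTPase-activating protein, rose by only 0.52 (edgeR adjusted p = 0.041). Without GL261 replicate 1 or replicate 2 both calls were lost, with edgeR adjusted p-values of 0.0515 and 0.0619 for Nt5e and 0.271 and 0.180 for Asap1. The call of Asap1 was also lost without GL261-GSCs replicate 2 or replicate 3 (edgeR adjusted p = 0.0643 and 0.085) and with no filter on low counts (0.0696).

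Among 9 relatives and partners of the 10 genes, 4 had enough counts to be tested. Wisp1 (Ccn4), of the same family as Cyr61 and Ctgf, had 132 and 129 UMIs in GL261 and 2, 9, 0 and 1 in GL261-GSCs, and fell by 5.39 on the log2 scale (edgeR adjusted p = 0.0036), with a log2 fold change of -6.74 without GL261-GSCs replicate 2. Within the TAM receptors Tyro3 moved opposite to Axl, with 8.21 and 8.86 CPM in GL261 and 33.7, 34.6, 26.0 and 21.0 CPM in GL261-GSCs. Tyro3 rose by 1.76 on the log2 scale (SE 0.25, edgeR adjusted p = 0.00287). Mertk had at most 2.17 CPM in any library and did not pass (log2 fold change 0.39, 95% interval -0.17 to 0.94). Of their ligands, Pros1 fell by 0.55 (edgeR adjusted p = 0.0241), and Gas6 had at most 3 UMIs in a library. The call of Pros1 was lost with library size scaling (edgeR adjusted p = 0.0918), without GL261 replicate 1 or 2 (0.140 and 0.170) and without GL261-GSCs replicate 2 or 3 (0.0546 and 0.0501).

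Detection in single cells showed how the sums were spread. Each cell was thinned to 2000 UMIs, and no cell was below that depth. Cyr61 was seen in 61.9% and 63.3% of GL261 cells and in 2.72%, 3.76%, 2.23% and 2.44% of GL261-GSCs cells. Without thinning the shares were 86.5% and 87.9% in GL261 and 6.63% to 14.9% in GL261-GSCs. Free RNA, estimated from barcodes of 100 to under 1000 UMIs, would give Cyr61 in 6.01% and 4.70% of thinned GL261 cells and in at most 0.258% of thinned GL261-GSCs cells. Without thinning these estimates were 29.1% and 21.9%, and at most 0.657%.

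Axl was seen in 46.9% and 45.4% of thinned GL261 cells and in 7.58%, 8.38%, 15.9% and 18.2% of GL261-GSCs cells. Without thinning the shares were 91.0% and 91.3%, and 35.1% to 49.3%. Free RNA would give Axl in 2.25% and 1.88% of thinned GL261 cells and in at most 2.17% of thinned GL261-GSCs cells. Without thinning these estimates were 11.8% and 9.24%, and at most 5.46%. Ctgf was seen in 14.6% and 14.9% of GL261 cells and in 0.0938%, 0.119%, 0% and 0.0665% of GL261-GSCs cells. Replicate 3 held Ctgf in 0 of 7275 thinned cells and, without thinning, in 4 cells (0.0550%, 95% exact interval 0.0150% to 0.141%, for counting error only). Tead1, Amotl2, Lats2, Ajuba and Wwtr1 were also seen in fewer cells of every GL261-GSCs library. For Tead1 the shares were 16.6% and 16.1% in GL261 and 5.25% to 8.13% in GL261-GSCs. How many of all genes were seen in fewer cells of every GL261-GSCs library was not computed. In CPM, 28% of all genes lay lower in every GL261-GSCs library than in both GL261 libraries. Yap1 alone of the 10 genes overlapped between the groups, with 10.6% and 9.92% of GL261 cells and 7.60% to 11.1% of GL261-GSCs cells. With 2 against 4 libraries an exact permutation test cannot give a p below 0.0667, so these shares are described and were not tested.

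**Figure D3:**
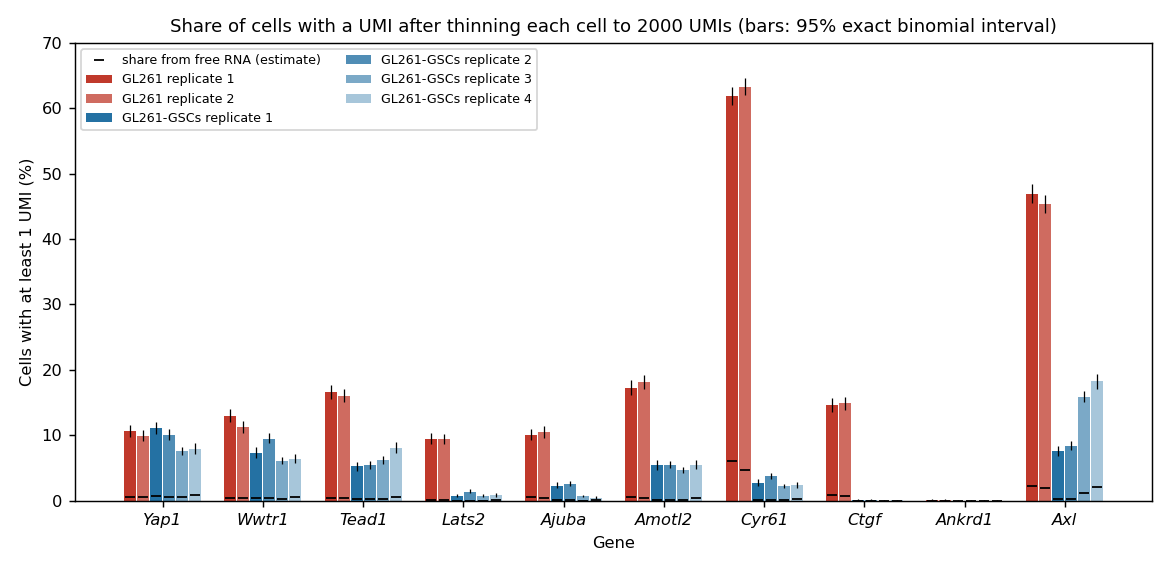
Detection (at least 1 UMI) in percent of cells after thinning each cell to 2000 UMIs, 1 bar per library from 0, with 95% exact binomial intervals (counting error only) and black ticks for the share that free RNA would give. Cyr61 and Axl stand at 61.9% to 63.3% and 45.4% to 46.9% in GL261 and at most 3.76% and 18.2% in GL261-GSCs, while Yap1 bars overlap.

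Within GL261 the level of Cyr61 varied from cell to cell with that of several other targets. Pearson r was computed across the 4808 and 5002 cells of each library on log(1 + UMIs per 10000), for genes with a UMI in at least 5% of cells, which left out Ankrd1. Cells of a library share depth and are not replicates, so r is given as a description. Cyr61 and Ctgf had the highest r of the 36 pairs, 0.389 and 0.397 in the 2 libraries. Cyr61 with Amotl2 had a mean r of 0.308, with Ajuba 0.252, with Tead1 0.251 and with Axl 0.210. For scale, r of Cyr61 with all genes above the same cut had a 99th percentile of 0.211 and 0.194, over 10503 and 10188 genes, and medians of 0.0285 and 0.0219. Cyr61 with Lats2 had 0.146 and 0.220 in the 2 libraries. After thinning to 2000 UMIs these pairs had a mean r of 0.121 for Amotl2, 0.112 for Axl, 0.111 for Tead1, 0.0781 for Ajuba and 0.0729 for Lats2, beside 99th percentiles of 0.0934 and 0.0893. The other pairs of Ctgf were weaker. The mean r was 0.137 for Amotl2, 0.131 for Ajuba, 0.118 for Lats2, 0.113 for Tead1 and 0.103 for Axl. For Ctgf the 99th percentiles over all genes were 0.142 and 0.118. After thinning, the mean r of these pairs was 0.0379, 0.0290, 0.0453, 0.0518 and 0.0370 in the same order. All were below the thinned 99th percentiles of 0.0610 and 0.0561.

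The coactivator transcripts had low r with Cyr61, a mean of 0.0311 for Yap1 and 0.0583 for Wwtr1. Yap1 had its highest mean r with Axl, 0.102. The 15 pairs with Yap1 or Wwtr1 had a median r of 0.0409, against 0.150 for the 21 pairs without them. Given total UMIs, mitochondrial share and the level of Top2a and Mki67, the mean partial r of Cyr61 was 0.385 with Ctgf, 0.281 with Amotl2, 0.235 with Tead1, 0.232 with Ajuba, 0.158 with Axl and 0.152 with Lats2. Thinning to 2000 UMIs lowered the plain mean r of Cyr61 and Ctgf from 0.393 to 0.241, and the median over all 36 pairs from 0.115 to 0.0363.

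In GL261-GSCs the 28 pairs that could be computed had a median r of 0.0152 and a highest mean r of 0.0574, for Yap1 with Tead1. Such values are too weak to read at these counts. Ctgf and Ankrd1 were below the cut in all 4 libraries, and Ajuba and Lats2 were above it in 2.

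**Figure D4:**
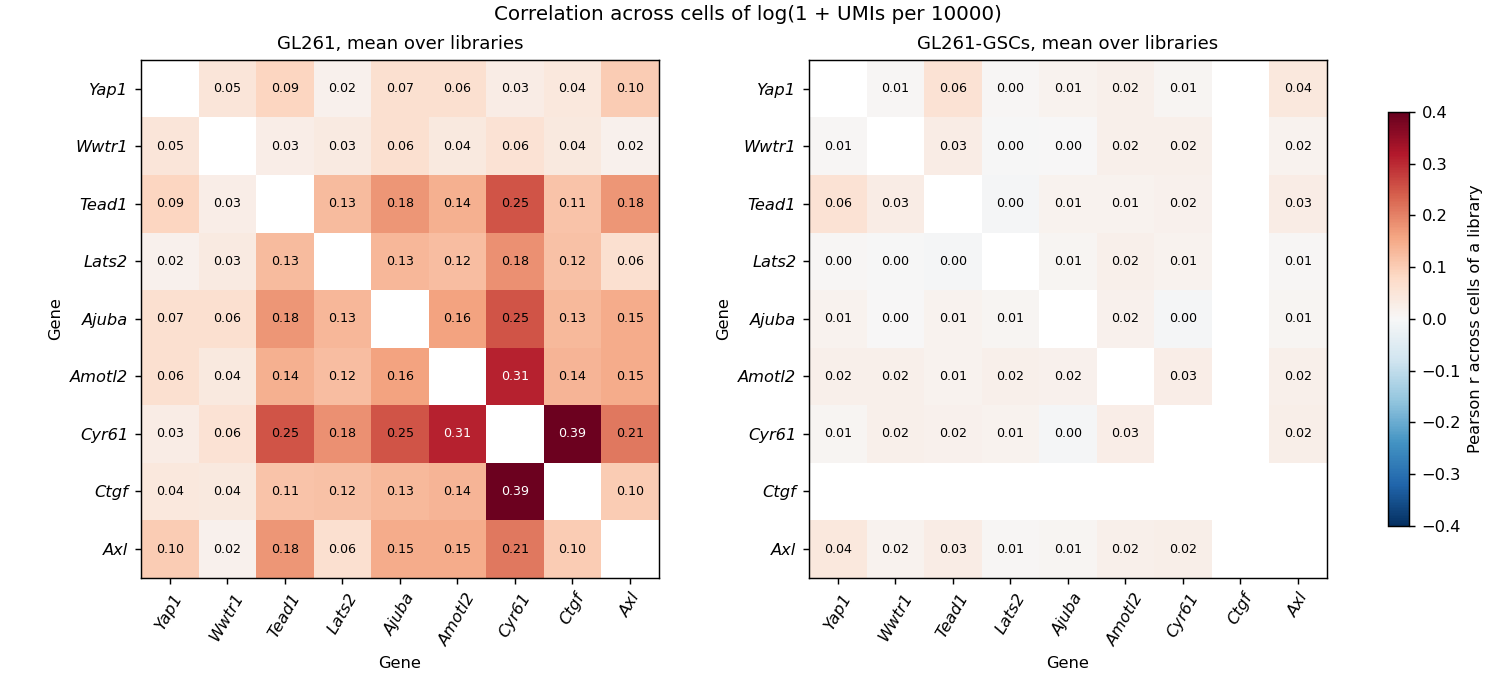
Mean Pearson r across cells for each pair of genes, GL261 left (mean of 2 libraries) and GL261-GSCs right (mean of 2 or 4), white where a gene was below the cut or paired with itself. In GL261 the Cyr61 row is the strongest, up to 0.39 with Ctgf, and the Yap1 and Wwtr1 rows are pale.

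Among the genes most like Cyr61 across GL261 cells, of 10166 compared in both libraries, were F3, the initiator of coagulation, with a mean r of 0.516, then Thbs1, a matricellular protein, at 0.491 and Hbegf, an EGF receptor ligand, at 0.486. Phlda1 followed at 0.452. Ctgf was the ninth gene in that order. The gene most like Ctgf was Cyr61 (0.393), with Rgs16 (0.268), Dusp1 (0.261) and Thbs1 (0.246) after it. Acta2, which encodes a smooth muscle actin, and Tagln, which encodes an actin-binding protein, had a mean r with Cyr61 of 0.167 and 0.152. After thinning these values were 0.107 and 0.104, above those of Ajuba (0.0781) and Lats2 (0.0729). They were below those of Amotl2 (0.121), Axl (0.112) and Tead1 (0.111). With Ctgf, Acta2 and Tagln had a mean r of 0.141 and 0.119 in GL261. Thinned, these were 0.0858 and 0.0699, at ranks 25 and 46 of 10166 genes. The thinned values of Amotl2, Ajuba, Lats2, Tead1 and Axl with Ctgf were lower, at most 0.0518.

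F3 is itself one of the signature targets, with 509 and 536 CPM in GL261 and 64.1, 100.1, 169 and 184 CPM in GL261-GSCs. It fell by 2.01 on the log2 scale (SE 0.39, edgeR adjusted p = 0.00989), a call lost without GL261 replicate 1 or 2 (edgeR adjusted p = 0.059 and 0.0687). In GL261-GSCs the genes most like Cyr61 were the stress and immediate early genes Atf3 (0.087), Jun (0.0844), Egr1 (0.0783), Csrnp1 (0.0731) and Fos (0.0711), of 9552. These values are weak. The 99th percentile of r with Cyr61 over all genes was 0.0453 to 0.0579 in the GL261-GSCs libraries. After thinning, Jun, Atf3, Fos and Egr1 had ranks 1, 2, 3 and 4, while Csrnp1 moved from rank 4 to rank 99.

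**Figure D5:**
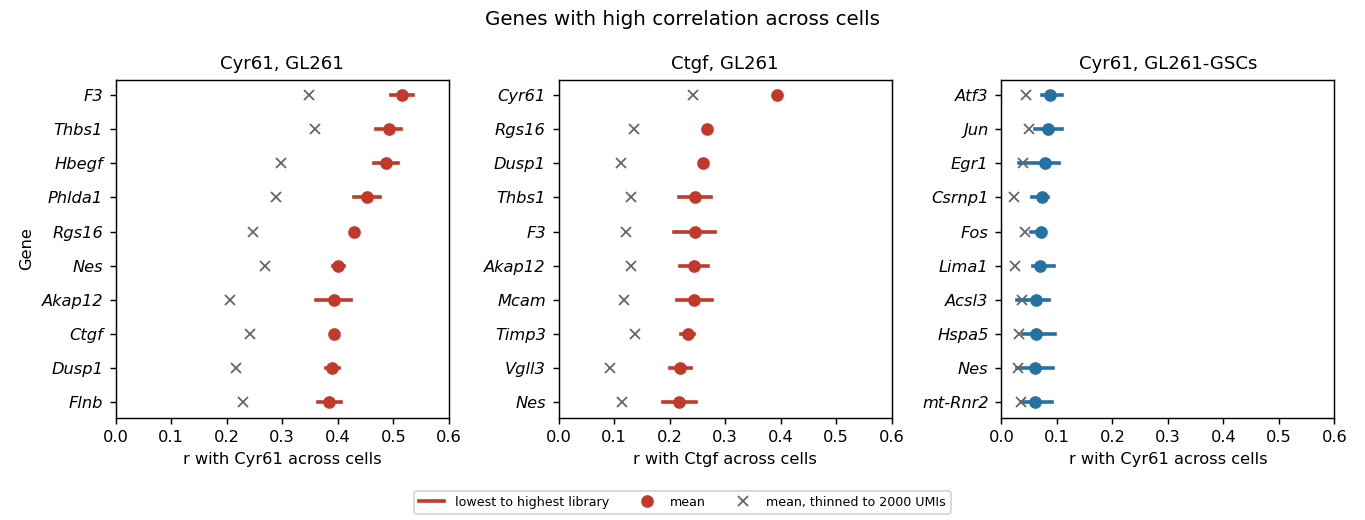
10 of the genes with the highest mean r with Cyr61 or Ctgf across cells (points), the range over libraries (lines, red GL261, blue GL261-GSCs) and the mean after thinning to 2000 UMIs (crosses). F3 and Thbs1 lead for Cyr61 in GL261 at 0.516 and 0.491, and the highest value in GL261-GSCs is 0.087.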

How the data were processed

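UMI counts per gene and barcode were deposited by the authors without filtering of barcodes, and per the file headers Cell Ranger 4 wrote them. The build is mm10 per the submitters' processing notes, and no source used here names the annotation release. Identifiers were matched to GENCODE M21 (GRCm38) for coordinates, 54409 of 54446 without version. Groups came from the sample titles.

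Cells were barcodes with 500 genes or more, under 10% mitochondrial UMIs, and UMIs of at least 10% of a reference depth (the 99th percentile among a library's 3000 deepest barcodes). Doublets were not removed. UMIs were summed over the cells of a library and tested with the edgeR 4.0.16 quasi-likelihood test in R 4.3.3 (TMM, filterByExpr, all 6 libraries, no block, Benjamini-Hochberg, threshold 0.05, 2-sided). Intervals of log2 fold changes use the test's degrees of freedom, and an SE is the absolute log2 fold change over the square root of F. Genes with 1 to 3 UMIs in a group have a count ratio with a 95% exact interval, which covers counting error only. Shares have Clopper-Pearson intervals (scipy 1.17.1). The fits were tested on simulated counts.

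The 10 genes, the lists and the rules were chosen with earlier results of these data known. The rule named all 10 genes, the called genes with the 4 largest changes per direction of each other list, and the 5 genes most like Cyr61 and Ctgf. Exceptions are stated, and 1 gene the rule names is not reported here. Alternatives were DESeq2 size factors and its 1.42.0 Wald test, library size scaling, no filter, limma-voom (limma 3.58.1), a replicate block, all barcodes with at least 1000 UMIs, leaving out each library, other thinning, Spearman rho and partial r.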

Additional observations from a re-analysis of the deposited data

How the results depend on the processing

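Of the 10 genes, 9 were called under every other tool, scaling, filter and cell definition tried, and leaving out either GL261 library left 7, with Wwtr1 and Ajuba lost. No fold change of the 10 changed sign. Leaving out 1 library at a time gave 1817 to 6193 calls over all genes (5514 with all libraries), 5 to 16 among other Hippo pathway genes (12) and 6 to 11 among other targets (11). The log2 fold change ranged from -1.07 to -0.82 for Wwtr1 and from -3.44 to -2.73 for Ajuba. Without a GL261 library the remaining one is assumed to vary like GL261-GSCs. Thinning lowered the median r of pairs to 0.0363 in GL261 (from 0.115) and to 0.00687 in GL261-GSCs (from 0.0152). Shares of cells depend on depth, and their size but not their direction moved with thinning.

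The labels do not say whether replicate numbers pair cultures. Deviations of same-numbered libraries from their group means correlated at -0.0264 and 0.0367. With only 2 GL261 libraries their deviations mirror each other, so these values cannot show whether cultures were paired. GL261-GSCs replicates 3 and 4 have no GL261 library of the same number. With the replicate block the contrast between the cultures therefore rests on replicates 1 and 2 of each. In this fit 6512 genes were called over all genes, 9 of the 10 genes, 11 other Hippo pathway genes and 11 other targets. The block moved the unlogged fold change by over 1.5 times for these genes, given as log2 fold changes: Ajuba (-2.37, from -3.07), Axl (-3.34, from -2.60), Ctgf (-7.27, from -7.93), Myof (-3.92), Wisp1 (-4.73), F3 (-2.70) and Nt5e (7.74), and limma-voom did so for Ctgf (-8.54). Wwtr1 was -0.68 with the block. The call of Vgll4 was lost with it (edgeR adjusted p = 0.0655). With only 2 GL261 libraries, small differences such as that of Yap1 are poorly resolved.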

Other observations

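Ctgf in GL261-GSCs came from few cells, a description chosen after the data were seen. In replicate 1, 17 of 4264 cells held its 57 UMIs, and the leading cells held 24, 9 and 8, with 3, 0 and 0 UMIs of Cyr61. In replicate 2 the leading cells held 12, 6 and 5 of 41 UMIs, with 3, 1 and 1 UMIs of Cyr61, and in replicate 4 the leading cell held 5 of 11, with 2. None of these cells held Acta2, the smooth muscle actin gene. Olig2 had 0, 6 and 2 UMIs in those of replicate 1, 6, 6 and 1 in those of replicate 2, and 1 in that of replicate 4.

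The level of some genes differed between called cells and the free RNA of the same library. In GL261 replicates 1 and 2, Lats2 had 53.7 and 55.2 CPM in cells and 20.6 and 14.1 CPM in free RNA, while Yap1 had 56.7 and 56.1 CPM in cells and 66.7 and 57.3 CPM in free RNA. Cyr61 had 690 and 511 CPM in free RNA, below its 1162 and 1134 CPM in cells.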
